A study of Saccharomyces cerevisiae with 12 samples.

Results

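Day 19 of the second fermentation in bottles was compared with day 15 in EC1118, a commercial Saccharomyces cerevisiae wine yeast. The comparison used 6 of the 12 arrays of the study, the 3 arrays of the third sampling point and the 3 arrays of the second. The rule took S. cerevisiae probe sets only, and the 3 arrays of a reference culture in YPD at 28 °C were not compared. The 3 arrays of day 7 entered the statistical model, where they helped to estimate the spread between bottles.

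All bottle samples shared strain, medium and handling. Cells pre-adapted to ethanol at 28 °C went into 20 L of base wine with 20 g/L of sucrose, in sealed bottles of 350 mL kept still at 16 °C for about 40 days. Ethanol had increased by 0.89% at day 15 and by 1.27% at day 19, against 0.26% at day 7. Each array held 5 µg of total RNA from 1 biological replicate, and the labels speak of independent tirage assays, tirage being the bottling step that starts the second fermentation. The arrays, Affymetrix Yeast Genome 2.0, gave 1 log2 value per probe set, and 5449 genes with a value were tested.

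The second fermentation turns a still base wine into a sparkling wine. Yeast ferments added sugar in a closed bottle, in the presence of ethanol, at low pH, at low temperature, with little oxygen and under rising carbon dioxide pressure. Oxygen is needed to make sterols and unsaturated fatty acids, so anaerobic yeast imports sterols and expresses a set of hypoxic cell wall genes. In growing yeast, ribosome production is the largest transcriptional task, and it is lowered together with growth while stress and reserve carbohydrate genes are raised.

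Arrays of 1 day did not lie equally close together. The correlation between arrays across genes was 0.92 to 0.98 among the 3 of day 15 and 0.82 to 0.94 among the 3 of day 19. Day 19 replicate 1 stood apart, with 468 genes more than 1 log2 unit outside the range of the other 5 arrays (156 above and 312 below). The same count was 106 for day 15 replicate 1 and 4 to 75 for the other 4 arrays. Day 19 replicate 1 and day 7 replicate 1 also lay together at one end of the first principal component of the 9 bottle arrays, which carried 36.8% of the variance. Ribosomal RNA probe sets averaged 12.37 ± 0.52 at day 15 and 12.28 ± 0.79 at day 19 (SD, n = 3). Results are therefore given with and without day 19 replicate 1.

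No gene passed the test. In limma, 0 genes were higher and 0 lower at day 19 at an adjusted p under 0.05 (0% of 5449 genes each), and the smallest adjusted p was 0.629. At an unadjusted p under 0.05 there were 244 genes with higher values at day 19 (4.48%) and 123 with lower values (2.26%). The 95% interval of a gene's difference reached a median of 0.73 log2 units to either side. Results are therefore given as values, and "higher" or "lower" names only the sign of a difference between group means. Values of a gene are deposited log2 values in the order of replicates 1 to 3, and a difference is day 19 minus day 15 in log2 units with its standard error from the fit over 9 arrays. Genes described as named by p are the 15 of smallest p in each direction among those whose arrays did not overlap between days. In RNA of whole cultures, a change in the number of cells that express a gene and a change in RNA per cell cannot be told apart.

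Genes whose 3 arrays of one day all lay above the 3 of the other were counted beside the test. All 3 arrays of day 19 lay above those of day 15 for 425 genes (7.8%) and below them for 266 genes (4.88%). Differences of more than 1 log2 unit, a 2-fold change, occurred in 150 genes upward and 137 downward, of which 73 and 54 did not overlap. Of all genes without overlap, 61.5% were higher at day 19, but 50.5% after each array was centred on its median, 48.8% after quantile normalization and 67.9% after centring on the S. pombe probe sets. The median difference of all genes was 0.05, and -0.003 after median centring. Without day 19 replicate 1, 1006 genes (18.5%) lay above and 716 (13.1%) below. These shares were 17.8% and 10.6% without day 15 replicate 1, 10.5% and 7.93% without day 15 replicate 2, 12% and 8.52% without day 19 replicate 2, and 13.9% and 8.86% without day 19 replicate 3. A list's count with 1 array left out is read against the share for that array.

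Weighting each array by its own spread changed the count of calls. With limma's array weights, 331 genes were higher (6.07%) and 165 lower (3.03%) at an adjusted p under 0.05. That model gave day 19 replicate 1 a weight of 0.21 and day 15 replicate 3 a weight of 6.83, so it rested mostly on the latter array for day 15. Day 19 replicates 2 and 3 had weights of 1.87 and 0.62, so for day 19 it rested mostly on replicate 2. Calls with array weights thus reflect mainly 1 array of each day. Passing "with array weights" below refers to this alternative and not to the main test. A count of members passing with array weights is read against its shares, 6.07% upward and 3.03% downward.

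Ribosome biogenesis genes had the broadest shift towards higher values. These 155 genes encode the nucleolar proteins, helicases and export factors that process pre-ribosomal RNA and assemble both subunits. Their median difference was 0.55 against 0.05 over all genes, and 149 of the 155 differences were positive. In 37 members all day 19 arrays lay above all day 15 arrays, in 0 members below, which is 23.9% against 7.8% of all genes. With array weights 67 of the 155 members passed upward and 0 downward, against 6.07% and 3.03% of all genes.

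The mean level of the list was 10.26, 9.75 and 9.93 on the day 15 arrays and 10.32, 11.00 and 10.38 on the day 19 arrays. The days did not overlap, but day 15 replicate 1 and day 19 replicate 1 were only a small step apart. At day 7 the list stood at 10.67, 10.19 and 9.78, a range that covers most values of both later days. The median was 0.50 to 0.58 under the other 3 scalings of the arrays and 0.66 without day 19 replicate 1. It was lowest, at 0.38, without day 19 replicate 2, the array with the highest level of the list, and 0.70 without day 15 replicate 1. Counts of members above without overlap ran from 38 to 92 when 1 of the 6 arrays was left out. They were highest without day 15 replicate 1, where 17.8% of all genes lay above. Up to 5 members lay below, without day 19 replicate 2.

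CGR1, needed for processing of the large subunit's RNA, showed the largest difference of the list. Its values were 8.96, 6.68 and 7.51 at day 15 and 9.66, 10.43 and 10.07 at day 19, a difference of 2.34 ± 0.58. The day 15 arrays spread over more than 2 log2 units and still stayed below day 19. RRP36, which acts in early cleavage of the pre-ribosomal RNA, was even at day 15 (8.84, 8.77 and 8.97) and stood at 9.45, 10.38 and 10.32 at day 19, a difference of 1.19 ± 0.30.

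MAK16, a factor of the large subunit, measured 8.86, 7.73 and 8.63 at day 15 and 9.45, 10.12 and 9.97 at day 19. IPI1, a subunit of the complex that removes a spacer from the pre-ribosomal RNA, measured 9.07, 8.44 and 8.07 at day 15 against 9.72, 9.80 and 10.10 at day 19. Neither gene overlapped between days, with differences of 1.44 ± 0.43 and 1.35 ± 0.36. NSR1, the yeast relative of nucleolin, measured 12.16, 11.10 and 11.43 at day 15 and 12.41, 13.19 and 12.32 at day 19. UTP9 of the small subunit processome measured 9.89, 9.14 and 9.57 at day 15 and 9.90, 11.14 and 10.73 at day 19, where day 15 replicate 1 and day 19 replicate 1 nearly met. DBP2, an RNA helicase, and ALB1, a shuttling factor of the large subunit, differed by 1.54 ± 0.64 and 1.52 ± 0.56. Both overlapped, because day 15 replicate 1 (11.68 and 9.92) reached the lowest day 19 array.

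**Figure D1:**
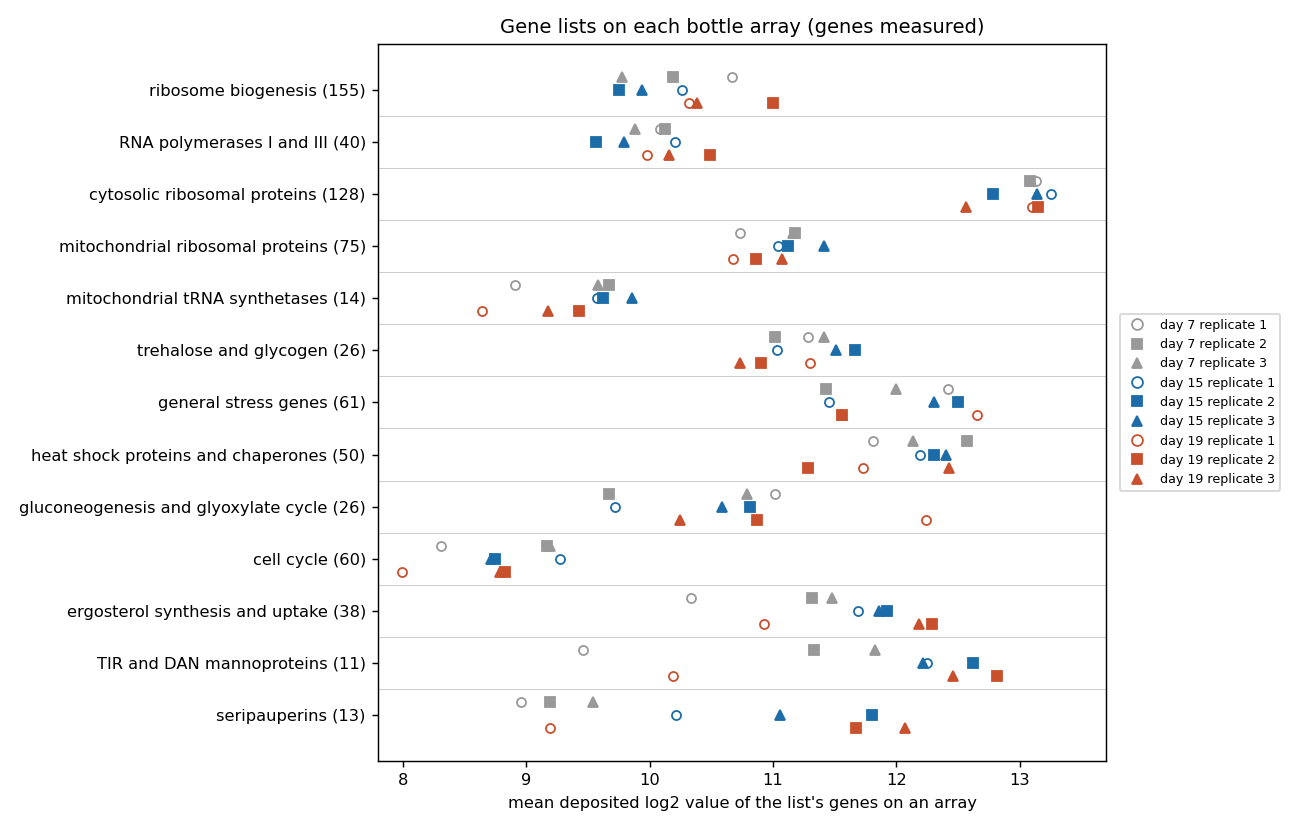
Mean deposited log2 value of each gene list (horizontal axis) on each of the 9 bottle arrays, with 1 row per list, colours for days and shapes for replicates. The ribosome biogenesis list lies higher at day 19 than at day 15 without overlap (10.32 or more against 10.26 or less), mitochondrial ribosomal proteins overlap slightly, and day 19 replicate 1 lies far from the other 2 arrays of its day in the lists on gluconeogenesis and on TIR and DAN mannoproteins.

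RNA polymerases I and III, which transcribe ribosomal RNA and transfer RNA, had a smaller shift. The 40 subunits and factors had a median difference of 0.28, and 33 differences were positive. Only 2 members did not overlap (5.0%, below the 7.8% of all genes), while 9 passed upward with array weights, against 6.07% of all genes. RPC19, a subunit shared by both polymerases, was one of the 2, at 11.00, 9.87 and 9.78 on day 15 and 11.05, 11.93 and 11.37 on day 19. RPA12 of polymerase I and RRN11 of its core initiation factor differed by 1.16 ± 0.49 and 1.47 ± 0.58, and in both the first day 15 array lay within the range of day 19. Without day 15 replicate 1, 18 of the 40 members lay above and 0 below, against 17.8% of all genes. PZF1, the transcription factor of the 5S ribosomal RNA gene, was not on this list and was named by p. It measured 8.39, 7.27 and 7.40 at day 15 and 8.80, 9.51 and 9.41 at day 19, a difference of 1.55 ± 0.34.

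Cytosolic ribosomal proteins did not share the shift of the assembly factors. Of 128 genes, 0 lay above and 0 below without overlap, against 7.8% and 4.88% of all genes. The median difference was -0.11, with 104 negative differences. The largest difference was that of RPL9A (-0.97 ± 0.48), at 12.80, 12.30 and 13.04 on day 15 and 12.39, 12.33 and 10.51 on day 19. It rested mostly on day 19 replicate 3, which was also the lowest array for the whole list (12.57 against 12.79 to 13.25 on the other 5). RPL8A showed the same pattern with 13.42, 13.61 and 11.54 at day 19, and its sign turned without that array. The list's median was 0.06 without day 19 replicate 3, and without day 15 replicate 2 38 of the 128 members lay below and 0 above, against 7.93% of all genes below. Translation factors, 43 genes, had a median of -0.01 with 1 member above (2.33% against 7.8% of all genes) and 0 below (against 4.88%).

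**Figure D2:**
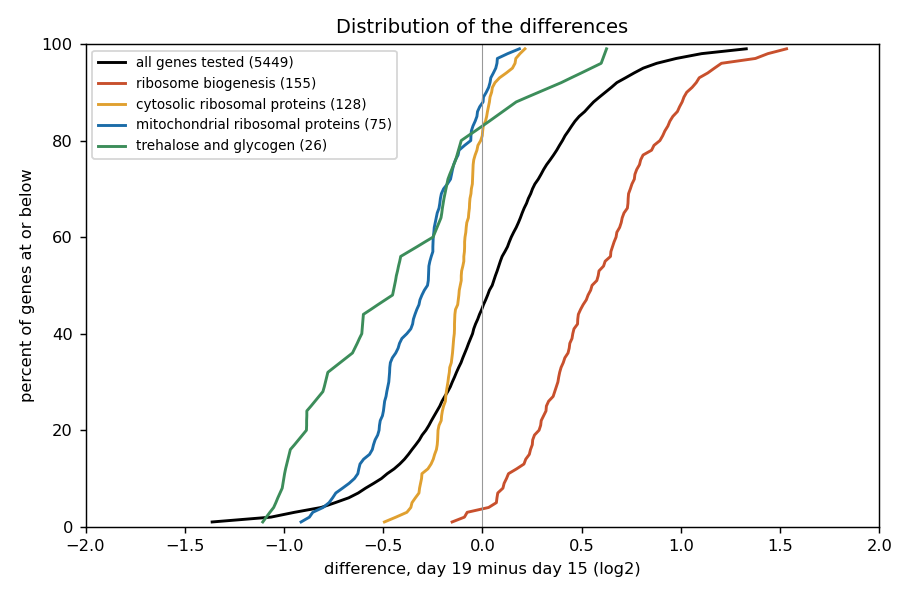
Percent of genes (vertical axis) with a difference between day 19 and day 15 at or below the log2 value on the horizontal axis, for all 5449 genes and 4 gene lists. The ribosome biogenesis curve lies to the right of all genes (median 0.55 against 0.05), the curves of mitochondrial ribosomal proteins (-0.28) and of trehalose and glycogen genes (-0.44) lie to the left, and cytosolic ribosomal proteins form a narrow curve around -0.11.

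Genes of the mitochondrial translation system had lower values at day 19. This machinery translates the few proteins encoded in mitochondrial DNA, most of them parts of respiratory enzymes. Of 75 mitochondrial ribosomal proteins, 65 had a negative difference, with a median of -0.28. All day 19 arrays lay below day 15 in 16 members (21.3% against 4.88% of all genes) and above in 0. With array weights 10 of the 75 passed downward and 0 upward, against 3.03% and 6.07% of all genes. The list's mean level was 11.04, 11.12 and 11.42 at day 15 and 10.68, 10.87 and 11.07 at day 19, so the lowest day 15 array and the highest day 19 array crossed by a small margin. The median was -0.22 without day 19 replicate 1, with 23 members below (30.7% against 13.1% of all genes) and 1 above. Over the other 3 scalings it was -0.33 to -0.25 with 12 to 25 members below.

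RML2, the mitochondrial counterpart of the bacterial large subunit protein L2, had the clearest separation. It measured 10.90, 10.97 and 11.27 at day 15 and 9.89, 9.90 and 10.26 at day 19, a difference of -1.03 ± 0.24. MRPL4 measured 10.23, 9.72 and 10.61 at day 15 against 9.12, 9.15 and 9.67 at day 19, again without overlap, and MRPL15 10.37, 10.74 and 11.14 at day 15 against 9.56, 10.11 and 10.18 at day 19. YML6 differed by -0.87 ± 0.36 and overlapped only through the low first array of day 15 (10.20, 11.11 and 11.23 at day 15, 9.43, 10.20 and 10.29 at day 19). MEF2, a mitochondrial translation factor of the elongation factor G family, was lower by the same order. Its values were 11.31, 11.44 and 11.24 at day 15 and 10.42, 9.69 and 10.51 at day 19, a difference of -1.12 ± 0.31.

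Aminoacyl transfer RNA synthetases split by compartment. The split was made after the values were seen. The 14 mitochondrial enzymes had a median of -0.59 with 13 negative differences. Of them 6 lay below without overlap (42.9% against 4.88% of all genes). With array weights only 1 of the 14 passed downward and 0 upward, against 3.03% and 6.07% of all genes. The 22 cytosolic enzymes had a median of -0.09 with 1 member below and 0 above, close to the share in all genes. MSF1, the mitochondrial phenylalanyl enzyme, measured 10.25, 9.06 and 10.14 at day 15 and 7.60, 8.94 and 9.01 at day 19. NAM2, the mitochondrial leucyl enzyme, measured 9.63, 9.93 and 10.00 at day 15 against 8.51, 9.43 and 9.37 at day 19, and AIM10, the mitochondrial prolyl enzyme, 9.62, 9.61 and 9.99 at day 15 against 9.11, 9.25 and 8.70 at day 19. In the first and second of these genes day 19 replicate 1 was lowest by about 1 log2 unit. The median of the 14 without that array was -0.47 with 8 members below (57.1% against 13.1% of all genes) and 1 above.

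Respiratory chain and ATP synthase genes showed small negative differences, 36 of 45, with a median of -0.17. Of these genes 6 lay below (13.3% against 4.88% of all genes) and 1 above. Without day 19 replicate 1, 21 members lay below (46.7% against 13.1% of all genes) and 3 above, at a median of -0.16. With array weights only 1 of the 45 passed downward and 1 upward, against 3.03% and 6.07% of all genes. Tricarboxylic acid cycle genes were similar, with 1 of 21 below at first (4.76% against 4.88% of all genes). Without that array 12 of 21 lay below (57.1% against 13.1% of all genes), and with array weights 2 of 21 passed downward and 0 upward. FUM1, fumarase, measured 12.05, 12.29 and 12.51 at day 15 and 12.74, 11.17 and 10.55 at day 19. KGD1, a subunit of the 2-oxoglutarate dehydrogenase, measured 11.82, 12.10 and 12.05 at day 15 against 12.64, 10.83 and 10.70 at day 19, so that in both genes replicate 1 alone lay above day 15. HAP1, the haem-responsive transcription factor, was the member above, at 9.56, 10.65 and 10.04 on day 15 and 11.24, 11.07 and 11.70 on day 19, a difference of 1.25 ± 0.32. HAP3, a subunit of the CCAAT-binding activator of respiratory genes, was lower at 9.98, 9.98 and 9.91 at day 15 against 8.76, 9.38 and 9.75 at day 19.

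Trehalose and glycogen genes had lower values at day 19. Both carbohydrates are reserves that yeast builds up as growth slows, and trehalose also protects proteins and membranes. Of 26 genes 21 had a negative difference, with a median of -0.44, and 6 lay below without overlap (23.1% against 4.88% of all genes) and 0 above. Array weights gave 8 calls downward and 0 upward among the 26, against 3.03% and 6.07% of all genes. The median was -0.62 without day 19 replicate 1, with 12 below (46.2% against 13.1% of all genes) and 0 above. Without day 15 replicate 1, 17 members lay below, against 10.6% of all genes. The list's mean level was 11.03, 11.66 and 11.51 at day 15 and 11.30, 10.91 and 10.73 at day 19, so the first array of each day lay between the other arrays of both days.

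UGP1 makes UDP-glucose, the precursor of both polymers. It measured 13.15, 13.53 and 13.46 at day 15 and 12.43, 12.52 and 12.54 at day 19, a difference of -0.89 ± 0.23, with the 3 arrays of day 19 nearly equal. TPS1, the trehalose phosphate synthase, was lower by a smaller step (12.43, 12.74 and 12.58 at day 15 against 11.97, 12.12 and 12.32 at day 19), and TSL1, a regulatory subunit of that enzyme, measured 11.85, 12.51 and 12.32 at day 15 and 11.79, 11.01 and 11.23 at day 19. GSY1, a glycogen synthase, and PGM1, a phosphoglucomutase, also did not overlap, with differences of -1.01 ± 0.42 and -1.13 ± 0.55. In PGM1 the nearest arrays were close together, at 7.72 on day 15 and 7.68 on day 19, and day 15 replicate 1 stood highest at 9.87. PGM2, the main phosphoglucomutase, and GDB1, the glycogen debranching enzyme, differed by -1.05 ± 0.42 and -0.99 ± 0.49 but overlapped. In PGM2 the overlap came from day 19 replicate 1, at 12.71 against 12.54, 12.85 and 12.87 at day 15.

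General stress genes differed less evenly. Of 61 genes, 6 lay below without overlap (9.84% against 4.88% of all genes) and 1 above, at a median of -0.15. With array weights 11 passed downward, against 3.03% of all genes. The median was -0.44 without day 19 replicate 1, with 21 below (34.4% against 13.1% of all genes) and 2 above. It turned to 0.01 without day 19 replicate 3. The list's mean was 11.46, 12.50 and 12.31 at day 15 and 12.66, 11.56 and 11.56 at day 19, so that day 19 replicate 1 held the highest and day 15 replicate 1 the lowest level of the 6. GRE3, an aldose reductase, was among the 6 by a narrow margin, at 12.60, 13.30 and 13.07 at day 15 against 12.23, 11.03 and 12.59 at day 19, and PNC1, the nicotinamidase, at 13.64, 13.93 and 13.75 at day 15 against 13.43, 12.59 and 13.31 at day 19. DDR48, a stress-induced cell wall glycoprotein gene responsive to DNA damage, was named by p at 13.20, 12.93 and 13.01 on day 15 and 12.32, 12.26 and 12.14 on day 19, a difference of -0.81 ± 0.20.

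Heat shock proteins and chaperones, 50 genes, had a median of -0.44 with 35 negative differences, but 1 member below (2.0%, under the 4.88% of all genes) and 0 above. With array weights 10 of the 50 passed downward and 1 upward, against 3.03% and 6.07% of all genes. The mean level was 12.20, 12.30 and 12.40 at day 15 and 11.73, 11.29 and 12.43 at day 19, so the first and second arrays of day 19 were low and the third was as high as day 15. Without day 19 replicate 3, 24 members lay below and 1 above, against 8.86% of all genes below. SSA2, a main cytosolic Hsp70, measured 13.78, 12.61 and 13.25 at day 15 and 8.91, 10.55 and 13.72 at day 19. SIS1, an Hsp40 partner, measured 13.19, 13.52 and 13.59 at day 15 against 11.59, 10.63 and 13.85 at day 19, and AHA1, an activator of Hsp90, 12.48, 13.22 and 13.18 at day 15 against 10.99, 10.35 and 12.65 at day 19. MGA1, a gene related to heat shock factor, was split the same way, at 12.35, 12.71 and 12.72 at day 15 against 8.76, 9.99 and 12.69 at day 19.

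**Figure D3:**
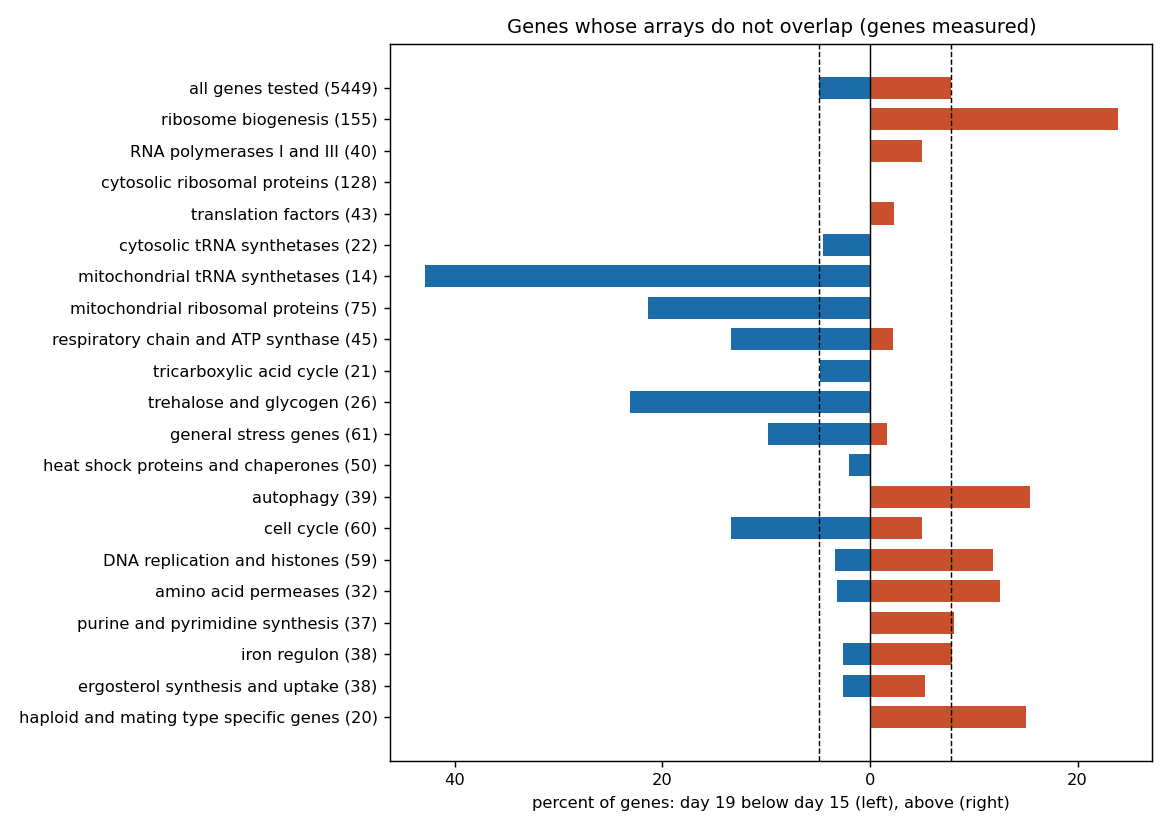
Percent of genes in each list with all 3 day 19 arrays below all 3 day 15 arrays (bars to the left) or above them (bars to the right), with the number of genes measured in brackets. Dashed lines mark the shares in all genes, 4.88% and 7.8%. Ribosome biogenesis reaches 23.9% upward, mitochondrial tRNA synthetases 42.9% and trehalose and glycogen genes 23.1% downward.

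Genes of sugar uptake and sucrose use included the largest negative differences. SUC2 encodes invertase, the enzyme that splits sucrose, the sugar added at bottling. It measured 13.24, 13.60 and 13.47 at day 15 and 12.82, 11.98 and 11.63 at day 19, a difference of -1.29 ± 0.38, and passed with array weights. HXT17 and HXT13, members of the hexose transporter family, had the largest negative differences of all genes tested. HXT17 measured 11.44, 12.43 and 12.44 at day 15 and 7.32, 10.48 and 8.11 at day 19, and HXT13 8.21, 8.78 and 8.99 at day 15 against 3.22, 7.47 and 5.12 at day 19. Both probe sets are marked as shared with other genes, so that close relatives cannot be told apart, and both scattered over 3 log2 units or more at day 19. HXT13 lay below the background of 4.56, set by S. pombe probe sets, on day 19 replicate 1.

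Of the 20 hexose transporters and sensors, 3 lay below (15.0% against 4.88% of all genes) and 1 above, at a median of -0.34. Without shared probe sets 1 of 16 lay below and 1 above, beside 262 and 420 of all 5332 genes in that setting. The median was -0.11 without day 19 replicate 1 and -0.05 with array weights. HXT2, a high affinity transporter, overlapped at 12.88, 13.51 and 12.25 at day 15 against 10.72, 13.56 and 9.25 at day 19. HXT4 was low on day 19 replicate 1 alone, at 7.92, 12.92 and 12.70 against 13.08, 12.16 and 12.29 at day 15. HXK1, the hexokinase made when glucose is scarce, was lower without overlap (13.89, 14.05 and 14.09 at day 15 against 12.79, 13.63 and 13.34 at day 19). Glycolysis as a whole had a median of 0.08 in 23 genes, with 1 below (4.35% against 4.88% of all genes) and 1 above (4.35% against 7.8%). MAL32, a maltase, differed by -1.12 ± 0.72 and overlapped, and its probe set is shared as well.

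GPP1, a glycerol phosphatase that forms glycerol, had higher values. It measured 11.89, 11.05 and 10.31 at day 15 and 13.42, 12.88 and 12.69 at day 19, a difference of 1.91 ± 0.64. GCY1, a glycerol dehydrogenase, differed by -0.80 ± 0.33 and overlapped through day 19 replicate 1 (12.64, 11.64 and 11.73 against 12.47, 12.95 and 12.98). ADH5, an alcohol dehydrogenase, lay below at 12.30, 12.50 and 12.71 at day 15 against 11.20, 10.66 and 12.05 at day 19. XKS1, xylulokinase, was at 10.61, 10.60 and 10.62 on day 15 and 9.73, 8.79 and 9.54 on day 19, a difference of -1.26 ± 0.35. YNR071C, a putative aldose epimerase, had the largest difference among the genes named by p, -2.99 ± 0.77, with 13.01, 13.59 and 13.48 at day 15 and a scattered 8.49, 12.11 and 10.49 at day 19.

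Gluconeogenesis and the glyoxylate cycle, which make sugar from ethanol and acetate, had the highest median of any list, 0.77 in 26 genes. The median was 0.12 without day 19 replicate 1, and 3 members lay above (11.5% against 7.8% of all genes) and 0 below with all arrays. The list's mean was 12.24 on that array against 10.87 and 10.24 on the other 2 of day 19 and 9.72, 10.81 and 10.59 at day 15. FBP1, fructose-1,6-bisphosphatase, measured 7.37, 9.94 and 10.30 at day 15 and 13.38, 10.53 and 9.14 at day 19. ICL1, isocitrate lyase, measured 9.38, 9.61 and 9.64 at day 15 against 13.51, 9.70 and 9.68 at day 19: the groups did not overlap, yet only 1 array lay apart. ADY2, an acetate transporter, measured 6.16, 10.77 and 8.28 at day 15 against 13.25, 12.12 and 8.91 at day 19. MAE1, the mitochondrial malic enzyme, was higher on all arrays (10.86, 11.19 and 10.50 at day 15 against 11.30, 11.67 and 11.89 at day 19), as was ATO3, of the ADY2 family (9.92, 9.86 and 9.47 at day 15 against 12.49, 11.13 and 10.06 at day 19).

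Genes of sulfur amino acids and of amino acid uptake included several without overlap. STR3, the cystathionine beta-lyase that leads from cysteine towards methionine, ranked first by p among the separated genes with higher values. It measured 8.49, 9.68 and 9.08 at day 15 and 10.99, 10.52 and 11.81 at day 19, a difference of 2.02 ± 0.39. The sulfur assimilation list that holds it had a median of 0.22 with 2 of 43 above (4.65% against 7.8% of all genes) and 1 below. Leaving out day 19 replicate 1 gave 13 above (30.2% against 18.5% of all genes) and 3 below. MUP3, a methionine permease, and MET14, a sulfate assimilation kinase, differed by 0.83 ± 0.51 and 0.83 ± 0.62 and overlapped.

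Of 32 amino acid permeases, 4 lay above (12.5% against 7.8% of all genes) and 1 below. Without day 19 replicate 1, 6 lay above (18.75%, near the 18.5% of all genes) and 2 below (6.25% against 13.1%). DIP5, the permease for glutamate and aspartate, measured 5.42, 7.43 and 6.38 at day 15 and 12.44, 8.35 and 8.28 at day 19, where replicate 1 exceeded the others by about 4 log2 units. TAT1, a permease for valine, leucine, isoleucine and tyrosine, measured 8.29, 8.67 and 8.23 at day 15 against 10.81, 10.49 and 9.28 at day 19, and BAP2, for branched-chain amino acids, 9.82, 11.00 and 10.55 at day 15 against 12.03, 11.59 and 11.19 at day 19. The nitrogen catabolite repression list had 4 of 44 above (9.09% against 7.8% of all genes) and 3 below (6.82% against 4.88%) at a median of 0.04. CAR1, arginase, was lower at 13.32, 12.07 and 12.27 at day 15 against 11.35, 11.66 and 11.75 at day 19, and GZF3, a repressor of the GATA factor family, was higher at 8.77, 8.49 and 7.82 at day 15 against 9.29, 9.73 and 8.81 at day 19.

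Purine and pyrimidine genes lay above without overlap about as often as all genes. ADE4, which catalyses the first step of purine synthesis, measured 10.45, 9.02 and 9.40 at day 15 and 11.24, 11.03 and 11.18 at day 19, a difference of 1.53 ± 0.40. BAS1, a transcription factor of purine genes, measured 9.81, 10.17 and 9.62 at day 15 against 10.31, 11.46 and 10.76 at day 19, and FCY2, a purine and cytosine permease, 11.45, 10.96 and 11.21 at day 15 against 12.17, 12.61 and 12.13 at day 19. These 3 were the only members above among 37 (8.11% against 7.8% of all genes), with 0 below, and the list's median was -0.05. Amino acid synthesis was as mixed, with 4 of 70 above (5.71% against 7.8% of all genes) and 3 below (4.29% against 4.88%). SER2, the last enzyme of serine synthesis, was higher by 1.28 ± 0.43 and GLY1, a threonine aldolase, by 0.93 ± 0.35. SER3, the first enzyme of serine synthesis, differed by -1.03 ± 0.51 and ARO8, an aromatic aminotransferase, by -0.96 ± 0.36.

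AUS1 is a plasma membrane transporter that imports sterol when oxygen is absent. It measured 7.68, 8.28 and 8.62 at day 15 and 9.80, 9.36 and 9.94 at day 19, a difference of 1.51 ± 0.36. PDR11, the second sterol importer, measured 7.93, 8.85 and 8.46 at day 15 against 8.99, 8.92 and 9.64 at day 19, the nearest arrays being close together. TGL1, a steryl ester hydrolase, lay below at 10.36, 10.98 and 10.46 at day 15 against 9.90, 9.96 and 9.68 at day 19. UPC2, the activator of sterol synthesis and uptake genes, measured 8.46, 8.74 and 8.18 at day 15 against 8.39, 9.63 and 10.48 at day 19, so replicate 1 of day 19 stayed within the range of day 15.

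The ergosterol list as a whole depended on 1 array. With all arrays 2 of 38 genes lay above (5.26% against 7.8% of all genes) and 1 below, at a median of -0.10. Without day 19 replicate 1, 27 of 38 lay above (71.1% against 18.5% of all genes) and 3 below, at a median of 0.33. The mean level was 11.69, 11.93 and 11.86 at day 15 and 10.92, 12.29 and 12.19 at day 19. Hypoxic genes depended on the same array. With it 4 of 34 lay above (11.8% against 7.8% of all genes) and 0 below, at a median of 0.08. Without it 17 of 34 lay above, against 18.5% of all genes, and 1 below, at a median of 0.34.

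Anaerobic mannoproteins of the TIR and DAN families and the seripauperins, small cell wall proteins of anaerobic and cold growth, showed the gap most plainly. TIR1 differed by -1.76 ± 1.43 with day 19 replicate 1 and by -0.06 without it. TIR2 measured 13.68, 13.59 and 13.46 at day 15 and 8.56, 13.59 and 13.21 at day 19. DAN1 measured 11.11, 12.21 and 11.34 at day 15 against 5.14, 13.00 and 13.38 at day 19. In these 3 genes day 19 replicate 1 lay 5 log2 units or more below replicate 2, below the day 7 means of 10.30, 11.37 and 8.04. Its low level in DAN1 set the sign of the difference, which was -1.04 ± 1.98 with that array and 1.64 without it. Of the 13 seripauperins 0 separated, at a median of -0.004 with that array and 0.84 without it. PAU7, whose probe set is shared with others of the family, measured 9.77, 13.03 and 11.95 at day 15 against 8.39, 13.65 and 13.27 at day 19.

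**Figure D4:**
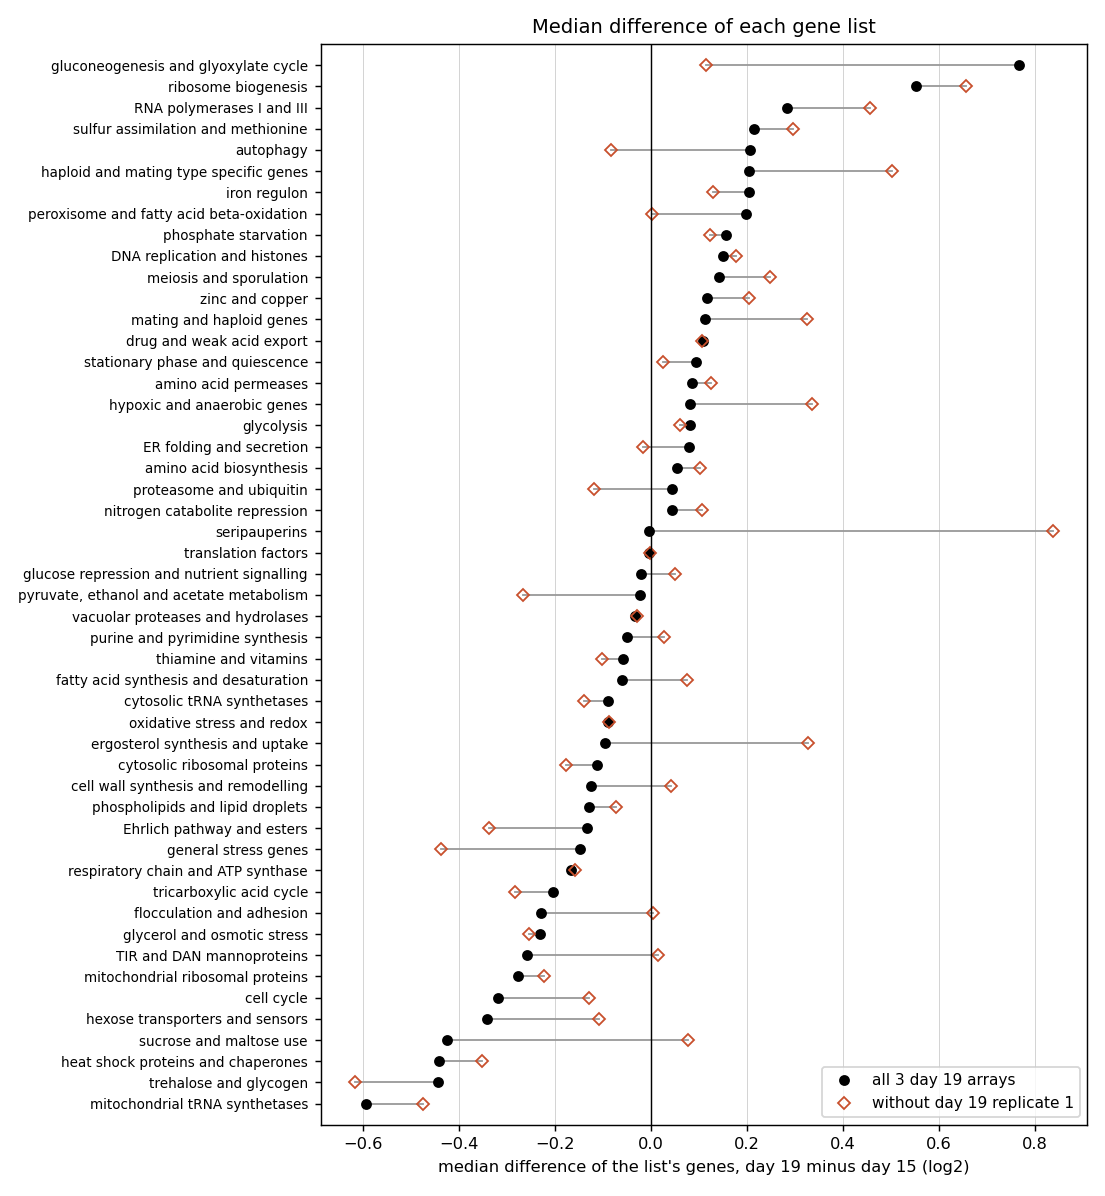
Median difference of each gene list between day 19 and day 15 (log2, horizontal axis), with all 3 day 19 arrays (filled circles) and without day 19 replicate 1 (open diamonds), 1 row per list in order of the first value. Ribosome biogenesis (0.55 and 0.66) and mitochondrial ribosomal proteins (-0.28 and -0.22) move little, while gluconeogenesis (0.77 and 0.12), seripauperins (-0.004 and 0.84) and ergosterol genes (-0.10 and 0.33) move far.

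Among lipid genes FAA4 and PLB2 were named by p, so their arrays lack overlap by the way they were chosen. FAA4, a long-chain acyl-CoA synthetase that activates imported fatty acids, was tight at day 15 (11.54, 11.56 and 11.45) and stood at 12.29, 12.76 and 12.80 at day 19, a difference of 1.10 ± 0.26. PLB2, a phospholipase B, measured 10.12, 10.53 and 10.16 at day 15 against 11.46, 11.04 and 11.75 at day 19, a difference of 1.15 ± 0.27. MGA2, a membrane-bound activator of the fatty acid desaturase gene, was higher by 0.71 ± 0.29 without overlap. PSD1, the mitochondrial phosphatidylserine decarboxylase, was lower at 10.26, 9.87 and 10.23 at day 15 against 8.88, 9.67 and 9.27 at day 19. The lists they belong to had medians near that of all genes, -0.06 for fatty acid synthesis and -0.13 for phospholipids.

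Iron uptake genes included one of the largest separated differences. FTR1, the permease of high affinity iron uptake, measured 8.20, 9.46 and 9.02 at day 15 and 10.75, 11.45 and 10.49 at day 19, a difference of 2.00 ± 0.43. ENB1, which imports the siderophore enterobactin, measured 5.66, 5.88 and 6.16 at day 15 against 7.87, 6.65 and 7.24 at day 19, and FRE6, a vacuolar ferric reductase, 8.90, 8.87 and 8.86 at day 15 against 10.12, 9.79 and 9.25 at day 19. These 3 of 38 iron regulon genes lay above (7.9%, at the share of all genes) and 1 below, with a median of 0.21. SIT1, another siderophore importer, was high on 1 array only (12.30, 7.05 and 7.59 at day 19, 6.88, 7.93 and 8.18 at day 15). PHO89, a phosphate transporter, likewise owed its difference of 1.46 ± 0.72 mostly to day 19 replicate 1 (11.14, 8.26 and 7.74 against 7.40, 7.67 and 7.70). PHO92, an RNA-binding protein tied to phosphate metabolism, was even at day 19, with 6.14, 6.33 and 7.18 at day 15 and 8.01, 7.75 and 7.90 at day 19, a difference of 1.34 ± 0.29.

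In the DNA replication and histone list 7 of 59 genes lay above (11.9% against 7.8% of all genes) and 2 below, at a median of 0.15. Leaving out day 19 replicate 1 gave 18 above (30.5% against 18.5%) and 3 below. RNR3, a subunit of ribonucleotide reductase known for its response to DNA damage, measured 9.28, 10.30 and 9.71 at day 15 and 11.00, 11.11 and 11.24 at day 19, a difference of 1.35 ± 0.28. ORC5 of the origin recognition complex and PSF2 of the GINS complex did not overlap either, with differences of 1.06 ± 0.27 and 1.09 ± 0.33, whereas ORC2 of the same origin complex lay below with -0.83 ± 0.30. SLD2, a replication initiation factor, was high on replicates 2 and 3 of day 19 only (7.49, 9.38 and 10.90 against 7.46, 8.25 and 7.79).

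In the cell cycle list 8 of 60 genes lay below (13.3% against 4.88%) and 3 above, at a median of -0.32. Without day 19 replicate 1, 10 lay below (16.7% against 13.1% of all genes) and 10 above (16.7% against 18.5%) at a median of -0.13. With array weights 1 passed upward and 0 downward, against 6.07% and 3.03% of all genes. CLB2, the main mitotic cyclin, measured 9.33, 7.93 and 7.61 at day 15 and 5.36, 7.60 and 7.59 at day 19. TEM1, the GTPase of mitotic exit, measured 9.88, 9.31 and 9.36 at day 15 against 7.64, 8.81 and 8.01 at day 19, and EGT2, a gene of cell separation, 11.31, 10.01 and 10.11 at day 15 against 7.90, 9.40 and 9.81 at day 19. In CLB2 and EGT2 the first array of day 15 was the highest and that of day 19 the lowest by more than 1 log2 unit. CLN2, a G1 cyclin, overlapped with a difference of -1.60 ± 0.71. Of the cell wall genes tied to division, CHS2, the septum chitin synthase, measured 9.37, 7.70 and 7.95 at day 15 against 6.09, 7.49 and 6.72 at day 19, and SUN4, a septation protein, 10.58, 9.29 and 8.93 at day 15 against 7.35, 8.86 and 8.47 at day 19. CTF13, a kinetochore subunit, was higher at 5.21, 5.11 and 4.45 at day 15 against 6.29, 5.96 and 6.81 at day 19, although its day 15 values lay close to background.

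Other cell wall genes included members with higher values. EXG1, an exoglucanase, was nearly constant within each day, at 12.23, 12.13 and 12.17 on day 15 and 12.79, 12.73 and 12.78 on day 19, a difference of 0.59 ± 0.20. PST1, a wall protein gene induced by wall damage, measured 12.50, 12.54 and 12.15 at day 15 against 13.03, 13.18 and 13.35 at day 19. In all, 7 of 55 wall genes lay above (12.7% against 7.8% of all genes) and 4 below (7.27% against 4.88%), at a median of -0.12. The median turned to 0.04 without day 19 replicate 1, with 13 above (23.6% against 18.5% of all genes) and 7 below (12.7% against 13.1%). The flocculation genes FLO9 and FLO11 differed by -1.75 ± 0.84 and -1.28 ± 1.16 and overlapped, and the probe set of FLO9 is shared.

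Autophagy, the delivery of cytoplasm to the vacuole, has been studied in the ageing of sparkling wine, where yeast cells later break down. Of 39 autophagy genes 6 lay above (15.4% against 7.8% of all genes) and 0 below, at a median of 0.21. Without day 19 replicate 1 these counts were 8 (20.5% against 18.5% of all genes) and 7 (17.9% against 13.1%) and the median -0.08. With array weights 0 members passed upward and 2 downward, against 6.07% and 3.03% of all genes. ATG8, the protein that coats autophagosome membranes, measured 11.98, 12.32 and 12.26 at day 15 and 13.01, 12.69 and 13.07 at day 19, a difference of 0.73 ± 0.23. ATG1, the kinase that starts the process, measured 9.58, 9.93 and 9.88 at day 15 against 10.38, 10.39 and 10.35 at day 19, 3 nearly equal values at day 19. APE1, a vacuolar aminopeptidase that reaches the vacuole by a selective form of autophagy, was lower at 12.05, 11.68 and 11.47 at day 15 against 10.92, 11.04 and 10.52 at day 19, a difference of -0.91 ± 0.25. Vacuolar proteases and hydrolases had 2 of 28 below (7.14% against 4.88% of all genes) and 0 above, and 9 below (32.1% against 13.1%) without day 19 replicate 1.

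Meiosis and mating genes were low in level and gave a few separated members. SPS100, a spore wall gene, measured 8.23, 9.91 and 9.78 at day 15 and 14.12, 11.49 and 11.51 at day 19, a difference of 3.07 ± 1.08, and 2.19 without day 19 replicate 1. SPS4, a sporulation gene, was lower at 7.61, 8.01 and 8.53 at day 15 against 6.00, 6.80 and 6.44 at day 19. IME1, the inducer of meiosis, was high on day 19 replicate 1 only (11.80, 8.28 and 7.81 against 6.47, 8.57 and 7.87). In the meiosis list 6 of 72 lay above (8.33% against 7.8% of all genes) and 2 below. Without day 19 replicate 1, 18 lay above (25% against 18.5% of all genes) and 6 below.

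Haploid and mating type specific genes were listed as a check of the diploid strain. In the higher of both day means all 20 lay above background, but so did 5389 of all 5449 genes, so this count cannot check ploidy. The list mean was 7.28, 7.64 and 7.71 at day 15 and 7.26, 7.87 and 8.32 at day 19. The median of all genes was 10.05 to 10.13 on these arrays. MFA1, a gene of the a-factor pheromone, differed by 1.61 ± 0.62 without overlap, and AGA2, an agglutinin subunit, measured 7.29, 6.78 and 6.41 at day 15 against 7.69, 7.55 and 8.04 at day 19. BAR1, the protease that degrades alpha-factor, was higher by 0.55 ± 0.30, which made 3 of 20 above (15.0% against 7.8% of all genes) and 0 below. GPA1, the G protein of the pheromone pathway, overlapped with 0.83 ± 0.35. The 8 members above without day 19 replicate 1 are 40.0% against 18.5% of all genes.

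The remaining genes named by p had no list in common. RFS1, a flavodoxin-like protein, ranked first by p among the separated genes with lower values, at 12.27, 12.24 and 12.46 on day 15 and 11.29, 11.07 and 11.15 on day 19, a difference of -1.15 ± 0.21. VRP1, the actin regulator verprolin, measured 9.86, 10.06 and 9.95 at day 15 against 8.83, 8.93 and 9.10 at day 19, and RGI1, a gene of energy metabolism with a role still open, 13.90, 13.95 and 13.99 at day 15 against 12.22, 12.38 and 13.40 at day 19. YER134C, a phosphatase gene, was among the tightest, with 10.85, 10.80 and 10.80 at day 15 and 9.85, 10.04 and 9.80 at day 19. YPL247C and YJR115W differed by -1.59 ± 0.34 and -0.99 ± 0.28, and on the other side YDL177C and SLO1 by 1.54 ± 0.35 and 1.44 ± 0.35. YIL134C-A measured 3.16, 4.27 and 4.93 at day 15, where the mean lay below the background of 4.56, and 6.25, 5.79 and 5.48 at day 19, so no size is given for its difference. YOS9, a lectin of protein quality control in the endoplasmic reticulum, was higher at 9.23, 9.11 and 9.26 at day 15 against 10.22, 9.98 and 10.76 at day 19, a difference of 1.12 ± 0.27. SEC31, a coat protein of transport vesicles, differed by -0.89 ± 0.26 without overlap.

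Redox genes were split, with 4 of 53 above (7.55% against 7.8% of all genes) and 4 below (7.55% against 4.88%). OYE3, an old yellow enzyme, was lower at 12.07, 10.76 and 11.28 at day 15 against 8.04, 10.30 and 10.63 at day 19, and GTT1, a glutathione transferase, was higher by 1.54 ± 0.58 with overlap. THI22, a relative of the thiamine synthesis kinases, measured 8.26, 8.49 and 7.98 at day 15 and 8.78, 9.54 and 10.20 at day 19, a difference of 1.26 ± 0.34. NDI1, the internal NADH dehydrogenase of mitochondria, differed by -0.70 ± 0.34 and overlapped.

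The lists not yet described are read against 7.8% of all genes above and 4.88% below, or 18.5% and 13.1% without day 19 replicate 1. Proteasome and ubiquitin genes had 1 of 47 above and 0 below at a median of 0.04, and folding and secretion in the endoplasmic reticulum 1 of 56 above and 4 below at 0.08, with 11 above and 10 below without that array. Peroxisome and beta-oxidation genes had a median of 0.20 with all arrays and 0.003 without that array. Glucose repression and nutrient signalling had 2 of 41 on each side, with 8 above and 7 below without that array, and drug and weak acid export 2 of 32 above and 0 below, with 7 above and 1 below without it. Pyruvate, ethanol and acetate metabolism had 3 of 27 below (11.1%) and 0 above at a median of -0.02, and 8 below (29.6%) and 3 above at -0.27 without that array. The Ehrlich pathway, which forms higher alcohols and aroma esters from amino acids, had 3 of 23 below (13.0%) and 0 above at -0.13, and 4 below and 2 above at -0.34 without it. Genes of stationary phase and quiescence had 3 of 30 above and 1 below at a median of 0.09.

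**Figure D5:**
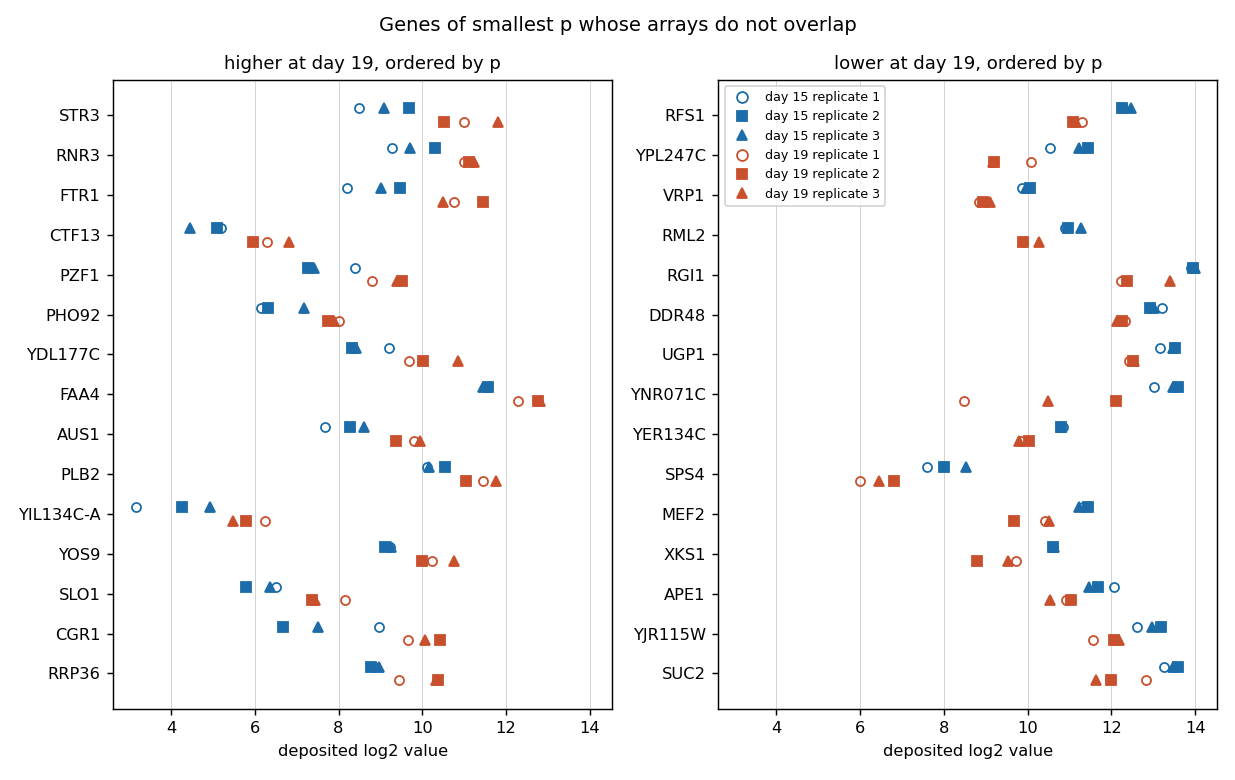
Deposited log2 values (horizontal axis) of the 15 genes of smallest p in each direction among those whose arrays do not overlap, 3 arrays at day 15 (blue) and 3 at day 19 (red), with open circles for replicate 1 of each day. No gene passed the test. The 2 days stay apart in each row by the way the genes were chosen, and YNR071C has the widest scatter at day 19, from 8.49 to 12.11.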

How the data were processed

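The files held log2 values of Affymetrix Yeast Genome 2.0 arrays, summarised by RMA per the submitters' processing notes and deposited by the authors as one table of the series. Its version is not given in the sources used here. RMA gives relative values within equal RNA input, so a change in total RNA per cell leaves no trace. Of 10928 probe sets, 5498 paired with 1 S. cerevisiae gene, and 1 probe set per gene gave 5449 genes. Probe sets of S. pombe set the background. Differences were fitted with limma 3.58.1 in R 4.3.3 over the 9 bottle arrays, without the reference arrays, and p-values were adjusted by Benjamini-Hochberg over all genes at 0.05. Errors of differences are standard errors of that fit. The fit was tested on simulated normal values with 1 spread per gene. That simulation held no array that stood apart, so it does not cover this feature of the data. Values were read with Python 3.11.15 and drawn with matplotlib 3.10.9.

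Members and lists were chosen with earlier results of these data known. Since no gene passed, the naming rule took the 15 genes of smallest p in each direction among those without overlap, above background and measured by an unshared probe set, and up to 4 members with the largest difference of each list. The other named genes, such as NSR1, IPI1, UTP9, TPS1, TSL1, AIM10, GRE3, PNC1, ICL1, ATO3, MAE1, BAP2, PDR11, TGL1, FRE6, TEM1, EGT2, EXG1, PST1, ATG1 and BAR1, were chosen after their values were seen. The count of genes without overlap was added after no gene passed. Alternatives changed the scaling, the filter on dim genes, the probe sets, the arrays in the fit, array weights, a replicate block and coding length. Promoter motifs were not analysed here.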

Additional observations from a re-analysis of the deposited data

How the results depend on the processing

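The counts of genes higher or lower at day 19 were 0 and 0 in limma under 21 of 22 alternatives, with smallest adjusted p-values of 0.116 to 0.977, and 331 and 165 with array weights. Genes without overlap numbered 425 to 1006 higher and 266 to 716 lower when arrays were left out one at a time. The low ends come from leaving out day 7 arrays, which do not enter this count, and leaving out 1 of the 6 arrays compared gave 570 to 1006 higher and 326 to 716 lower, depending on the array. Named genes were chosen for small p, lack of overlap or large differences, or after their values were seen. Stable signs were thus partly fixed by the choice, since a gene without overlap cannot change sign when 1 array is left out. Of 131 named genes 126 kept the sign of their difference in all alternatives. The exceptions were RPL8A (-0.40, and -0.78 to 0.26 with arrays left out), HXT4 (-1.33, 0.17 with array weights, -2.20 to 0.30), DAN1 (-1.04, 1.02 with array weights, -2.48 to 1.64), PAU7 (0.18, -0.75 to 1.88) and SIT1 (1.32, -0.49 with array weights, -0.34 to 2.29), and the cause was not tested. With array weights 75 of the 131 passed, beside 6.07% of all genes upward and 3.03% downward. Under the other settings 0 passed. List medians changed sign under some alternative in 32 of 51 lists and in none for 19. The paired fit with the replicate block also called 0 and 0 genes, with 246 and 155 at an unadjusted p under 0.05. Deviations of arrays with the same replicate number correlated at -0.15, -0.04 and -0.01, and those of arrays with different numbers at -0.23 to 0.16. No pairing by number was seen, but with 3 arrays a day these values cannot decide whether the numbers pair the samples. The number of arrays, 3 a day, limits the precision.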
